A study of Mus musculus with 12 samples.

Results

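The genes described here encode the constitutive proteasome of the mouse podocyte. They are all gene symbols of the 20-week and 28-week count tables that begin with Psma to Psmg and a number, without the inducible subunits Psmb8, Psmb9 and Psmb10 and without pseudogene symbols. The rule found 48 symbols of the 25316 listed at either age, and all 48 were in both tables. Of these, 43 encode a subunit, chaperone, activator or inhibitor of the proteasome, 31 of them subunits of the 26S particle. Psma8 and Psmb11, core subunits of the testis and the thymus, and Psmc3ip, Psme3ip1 and Psme2b, which are partners or a gene copy, complete the 48. The data are RNA-seq of primary podocytes, the epithelial cells of the kidney filter, from mice in a diabetic model induced by high-fat diet (HFD) and streptozotocin (STZ). Each of 4 groups held 3 libraries: Nsd2 knockouts at 20 weeks of age (Cre+/Nsd2fl/fl), floxed controls at 20 weeks (Cre-/Nsd2fl/fl), and the same genotypes at 28 weeks. All groups carried the floxed alleles and all were in the diabetic model, so no group was non-diabetic. The labels call the knockout podocyte-specific and do not name the Cre driver, the sex of the mice or how many animals a library holds, and a p-value therefore reflects how these libraries varied, possibly for technical reasons.

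The 26S proteasome degrades proteins tagged with ubiquitin. Its 20S core is a barrel with outer rings of alpha subunits and inner rings of beta subunits, and the proteolytic sites lie on the beta subunits encoded by Psmb5, Psmb6 and Psmb7. A 19S cap, made of a base with a ring of ATPases and a lid, binds the tagged protein, removes the ubiquitin and threads the protein into the core. Chaperones build both parts, and activators such as PA28 and PA200 can take the place of the 19S cap. When degradation fails, the transcription factor NRF1 (Nfe2l1) raises the subunit genes together through antioxidant response elements in their promoters. Podocytes do not divide readily, and protein turnover in them depends on the proteasome and on autophagy.

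Total counts ran from 31405349 to 38989180 per library. Nsd2, the histone methyltransferase that was deleted, had 51.7, 34.1 and 45.0 counts-per-million (CPM) in 20-week knockouts, against 94.2, 66.6 and 79.0 CPM in 20-week controls. At 28 weeks it had 35.2, 35.2 and 42.9 CPM in knockouts, against 87.2, 77.6 and 80.1 CPM in controls. The groups did not overlap, and the edgeR test gave an adjusted p of 0.0402 at 20 weeks and 0.00431 at 28 weeks. All 12 podocyte markers of a list of 12 passed the filter on low counts at both ages. Their summed level was 1982 to 2626 CPM in 20-week knockouts, against 867 to 1427 CPM in 20-week controls. At 28 weeks it was 768, 2291 and 1408 CPM in knockouts 1, 2 and 3, against 2042, 1266 and 1301 CPM in controls 1, 2 and 3. Some libraries stood apart at both ages. At 28 weeks controls 2 and 3 differed from each other by a biological coefficient of variation of 0.0472, whereas every other pair within a group differed by 0.225 to 0.413. The labels do not say whether these controls came from separate animals or cultures; if they did not, the 28-week controls hold 2 independent samples and their SD is partly technical. At 28 weeks knockout 1 had a summed level of 11 distal tubule markers of 7419 CPM, against 62.5 and 657 CPM in the other knockouts and 4384 to 7703 CPM in controls. At 20 weeks the sum of 12 such markers was 2123 CPM in knockout 1, against 216 and 228 CPM in the other knockouts and 3710 to 6468 CPM in controls. A sum of 6 leukocyte markers was 333 CPM in 20-week control 3, against 67.2 and 90.5 CPM in 20-week controls 1 and 2. In 20-week knockouts 1, 2 and 3 that sum was 318, 425 and 241 CPM.

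Proteasome transcripts were abundant in every group. On the length-scaled FPKM scale, the 26S subunits had mean levels over the 12 libraries from 54.9 FPKM for the lid subunit Psmd11 to 301 FPKM for the lid subunit Psmd8, a 5.48-fold range with a median of 128 FPKM. The beta subunits had the highest median of any role, 239.8 FPKM, and ranged from 148 FPKM for Psmb6 to 294 FPKM for Psmb5, a 1.99-fold range. The alpha subunits had a median of 159 FPKM, from 66.4 FPKM for Psma3 to 269 FPKM for Psma2, and the 6 ATPases had a median of 120.4 FPKM, from 81.7 FPKM for Psmc6 to 177 FPKM for Psmc3. Cofactors were lower. The 20S assembly chaperones Psmg1 to Psmg4 had 14.9 to 24.9 FPKM, the base chaperones Psmd5, Psmd9 and Psmd10 had 14.6 to 53.2 FPKM, and the inhibitor Psmf1 (PI31) was the lowest of the 43 at 10.8 FPKM. Among activators, Psme2, a subunit of PA28, had 90.5 FPKM and Psme4 (PA200) had 23.6 FPKM. Psma8 and Psmb11 had 0.078 and 0.0017 FPKM. When the 43 were ordered by mean, few neighbours stood far apart. Of 42 neighbouring pairs, the gap between means was larger than the summed standard deviations in 4 pairs in 20-week knockouts, 5 in 20-week controls, 1 in 28-week knockouts and 3 in 28-week controls. These standard deviations include shifts of whole libraries that many subunits share, so the count does not measure how certain the order is.

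**Figure D1:**
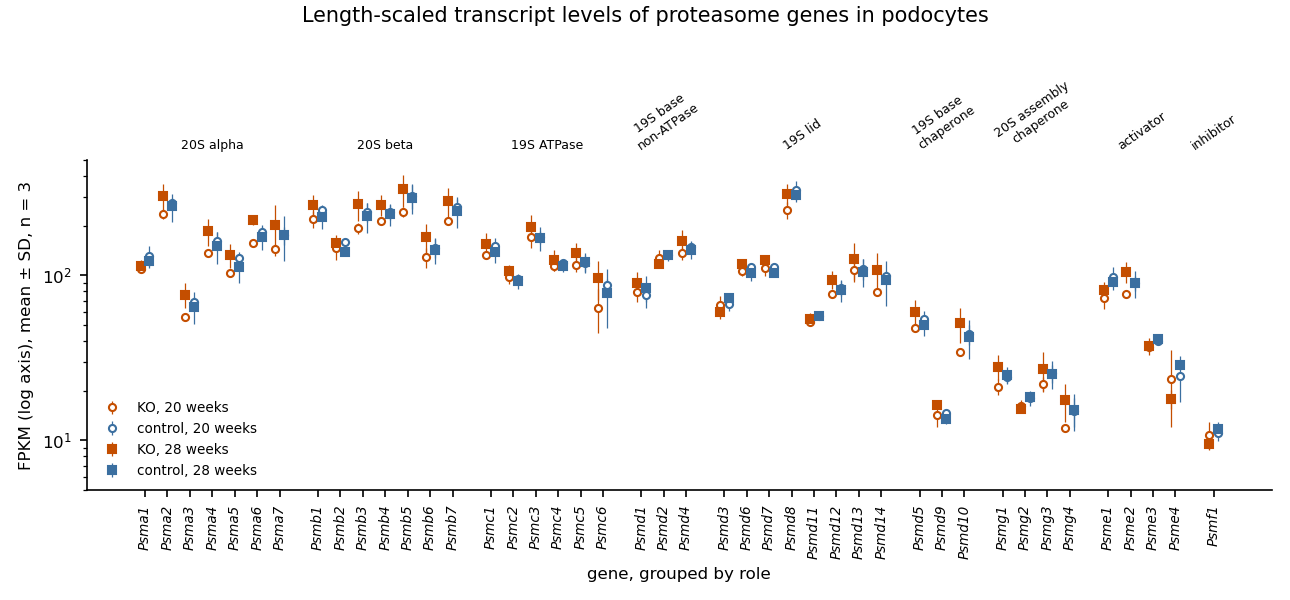
Length-scaled transcript level (FPKM, log axis) of the 43 proteasome subunit and cofactor genes, grouped by role, as mean ± SD of 3 libraries for knockouts (orange) and controls (blue) at 20 weeks (open circles) and 28 weeks (filled squares). The beta subunits form the highest group, and Psmf1 the lowest level, at 10.8 FPKM over all libraries.

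Promoter sequences are shown for 4 genes that the results turn on: the catalytic subunits Psmb5 and Psmb6, Psma6, which had the highest fold change of the members at 28 weeks, and Psme4, the one member that passed the test. They come from RefSeq on GRCm38.p6 and read 5′ to 3′ on the gene's strand, upstream of the start and ending at the base before the RefSeq start or, where the GENCODE gene begins earlier, before that gene. Capitals mark matches to the core of the antioxidant response element (TGACNNNGC), to the CCAAT box (CCAAT) or to the GC box (GGGCGG), on either strand, and no match overlaps another in these 4. Psmb5 lies on the minus strand at chr14:54618023-54618245, Psmb6 on the plus strand at chr11:70525107-70525356, Psma6 on the plus strand at chr12:55383972-55384221 and Psme4 on the plus strand at chr11:30771525-30771725.
Psmb5: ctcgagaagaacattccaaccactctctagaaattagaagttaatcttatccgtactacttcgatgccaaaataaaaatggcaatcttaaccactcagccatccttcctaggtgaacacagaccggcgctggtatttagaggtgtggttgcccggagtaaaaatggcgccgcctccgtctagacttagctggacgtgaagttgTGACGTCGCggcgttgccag
Psmb6: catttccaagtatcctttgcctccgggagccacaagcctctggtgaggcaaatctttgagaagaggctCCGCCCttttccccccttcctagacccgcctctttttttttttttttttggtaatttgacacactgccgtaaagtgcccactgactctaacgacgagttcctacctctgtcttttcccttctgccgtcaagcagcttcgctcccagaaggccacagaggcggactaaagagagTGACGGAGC
Psma6: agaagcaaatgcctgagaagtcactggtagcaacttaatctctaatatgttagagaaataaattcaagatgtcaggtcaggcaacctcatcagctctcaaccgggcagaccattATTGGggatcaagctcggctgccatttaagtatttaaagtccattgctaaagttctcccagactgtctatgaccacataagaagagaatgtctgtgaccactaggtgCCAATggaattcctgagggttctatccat
Psme4: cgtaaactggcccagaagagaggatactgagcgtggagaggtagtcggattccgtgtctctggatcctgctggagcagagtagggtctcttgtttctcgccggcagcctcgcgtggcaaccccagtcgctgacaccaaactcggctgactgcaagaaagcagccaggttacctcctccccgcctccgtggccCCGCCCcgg
Psmb5 and Psmb6 each hold 1 antioxidant response element core, which begins 47 and 9 bases before the RefSeq start. Psma6 holds 2 CCAAT boxes and Psme4 holds 1 GC box. In the 250 bases before the start, 5 of the 40 members matched in RefSeq had the antioxidant response element core (12.5%), against 11.5% of all 27025 genes in the table. The CCAAT box was in 15 of the 40 (37.5%), against 37.5% of all genes, and the GC box in 22 of the 40 (55.0%), against 35.4%. A match is a run of letters in this window and not a shown binding site.

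At 20 weeks no proteasome gene passed the test for a knockout effect. Of the 48 members, 46 passed the filter on low counts, and 0 of these 46 passed an adjusted p of 0.05 in edgeR, where 9.92% of all 14853 genes tested passed. The count was 0 in DESeq2 too, and 0 members had an unadjusted p under 0.05 in edgeR, against 25.0% of all genes. The smallest adjusted p was 0.327, for Psmd8. The median log2 fold change of the members was -0.08, against 0.01 over all genes tested, and 31 of 46 lay below 0, against 48.9% of all genes. On log2(FPKM + 1) 43 of the 46 lay below 0, with a median of -0.16 against -0.05 over all genes, and 5 had an unadjusted p under 0.05. On TMM-scaled CPM 0 members had every knockout above every control, against 15.5% of all genes, and 0 had every knockout below every control, against 16.7%. The separation of groups depended on the scaling: on FPKM, which is scaled by the library total, 10 of the 46 had every knockout below every control, against 21.1% of all genes, among them Psma3, Psma4, Psma5, Psma6, Psmb7 and Psmd8, and 0 had every knockout above, against 11.9%.

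By role at 20 weeks, all 14 subunits of the 20S core had log2 fold changes below 0, from -0.25 for Psmb3 to -0.04 for Psmb2, with a median of -0.16. The 17 subunits of the 19S cap had a median of 0.03, with 10 above 0 and 7 below, from -0.37 for the ATPase Psmc6 to 0.14 for Psmd1, the scaffold of the base. On log2(FPKM + 1) 14 of 14 core subunits and 15 of 17 cap subunits lay below 0, with medians of -0.24 and -0.06, and the difference between core and cap was not tested. Standard errors of these 31 subunits ran from 0.14 to 0.22, and no adjusted p was below 0.327. Control 1 was the lowest of the controls in 27 of the 31 subunits. With any 1 library left out, the median of the members ran from -0.21, without control 1, to -0.0044, without control 2. Without control 1 39 of 46 members lay below 0 and 5 had an unadjusted p under 0.05, and that count was 0 or 1 without any other single library.

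At 28 weeks most subunit genes had higher values in knockouts, but none of them passed the test. Of 46 members tested, 38 had a log2 fold change above 0, against 55.0% of all 15011 genes, and the median was 0.28, against 0.07 over all genes. By edgeR 1 member passed an adjusted p of 0.05, the activator Psme4, which fell; 21.2% of all genes passed, and 11.9% passed as lower. Unadjusted p-values under 0.05 were found for 7 members, against 34.8% of all genes, and for 2 to 4 members with any 1 library left out. On TMM-scaled CPM every knockout lay above every control in 9 members, against 19.3% of all genes, and below in 3 members, against 22.8%; on FPKM these counts were 6, against 15.8%, and 5, against 25.9%. By each of these counts of called or separated genes, the share of the members was near or below that of all genes.

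**Figure D2:**
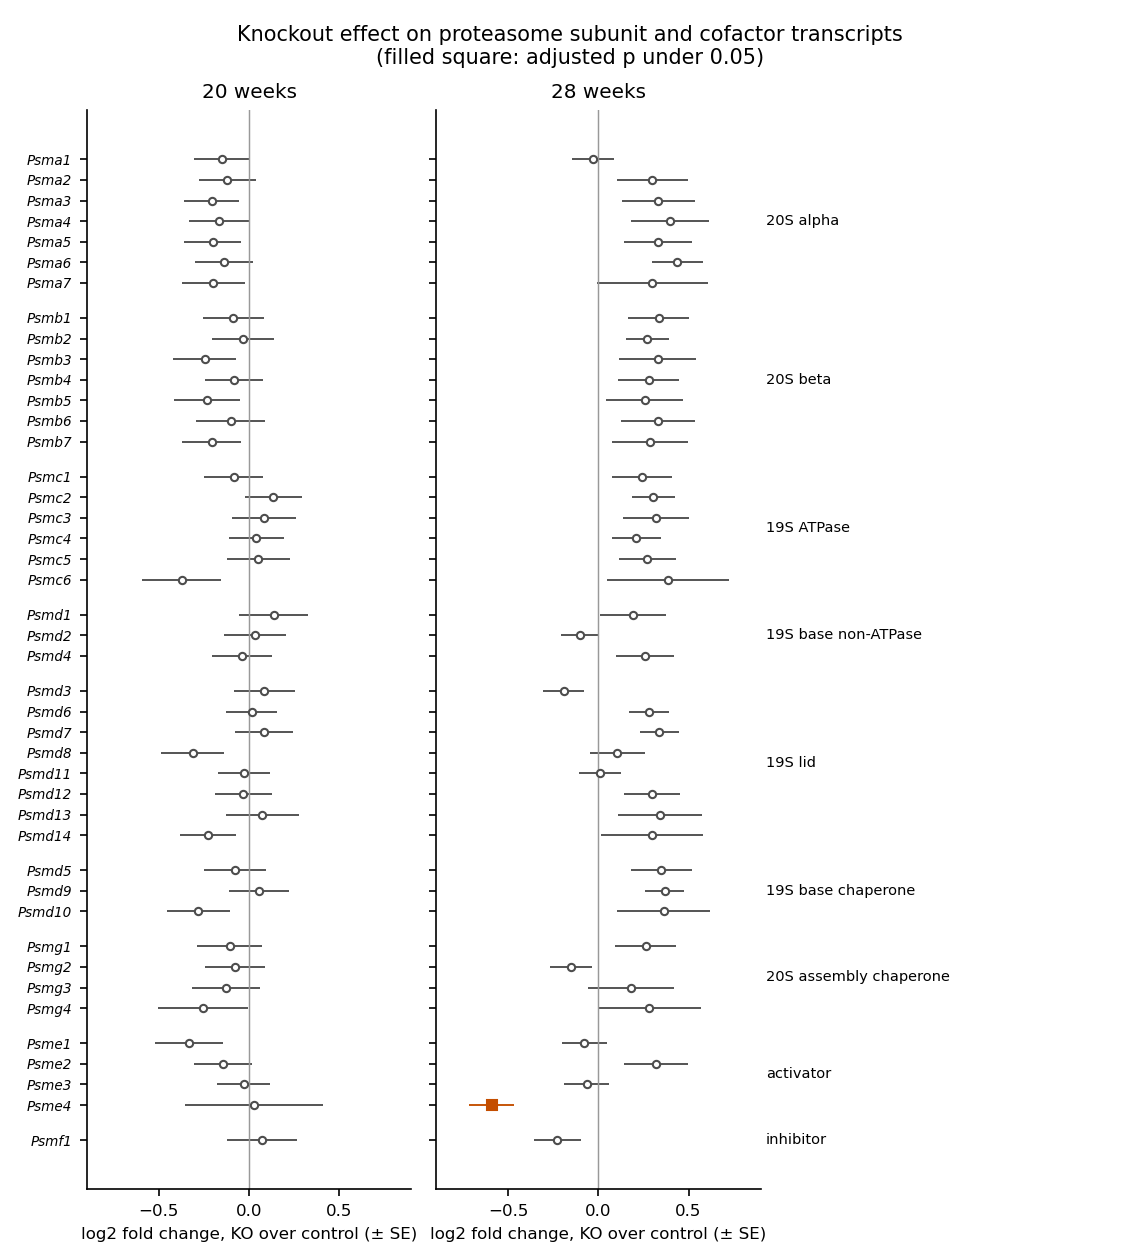
Log2 fold change of knockout over control (horizontal axis, ± SE) for the 43 proteasome subunit and cofactor genes in rows by role, at 20 weeks (left) and 28 weeks (right). The filled square marks Psme4 at 28 weeks, at -0.59, the one gene at an adjusted p under 0.05. At 28 weeks 28 of the 31 subunits of the 26S particle lie right of 0.

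Psme4 encodes PA200, a large activator that caps the core and is known for the degradation of acetylated histones in the testis and after DNA damage. At 28 weeks it had 127, 135 and 159 CPM in knockouts, against 202, 218 and 215 CPM in controls. All 3 knockouts lay below all 3 controls. The means were 140.3 ± 16.9 CPM in knockouts and 212 ± 8.69 CPM in controls (SD, n = 3 each), a log2 fold change of -0.59 ± 0.13 (SE), or 33.7% lower, with an edgeR adjusted p of 0.0204. The adjusted p was 0.0877 without control 2 and also without control 3, 0.0541 without knockout 1 and 0.0918 without knockout 2, so the call was lost in each of these 4 fits; it was 0.0430 without control 1 and 0.0178 without knockout 3. With controls 2 and 3 summed as 1 library it was 0.0857. At 20 weeks Psme4 had 283, 98.9 and 178 CPM in knockouts, against 190.1, 122 and 237 CPM in controls. The 20-week libraries of both genotypes spread over more than the whole 28-week difference, and the log2 fold change was 0.03 ± 0.38. In the model of all 12 libraries, where the spread of both ages is shared, the adjusted p at 28 weeks was 0.245.

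**Figure D3:**
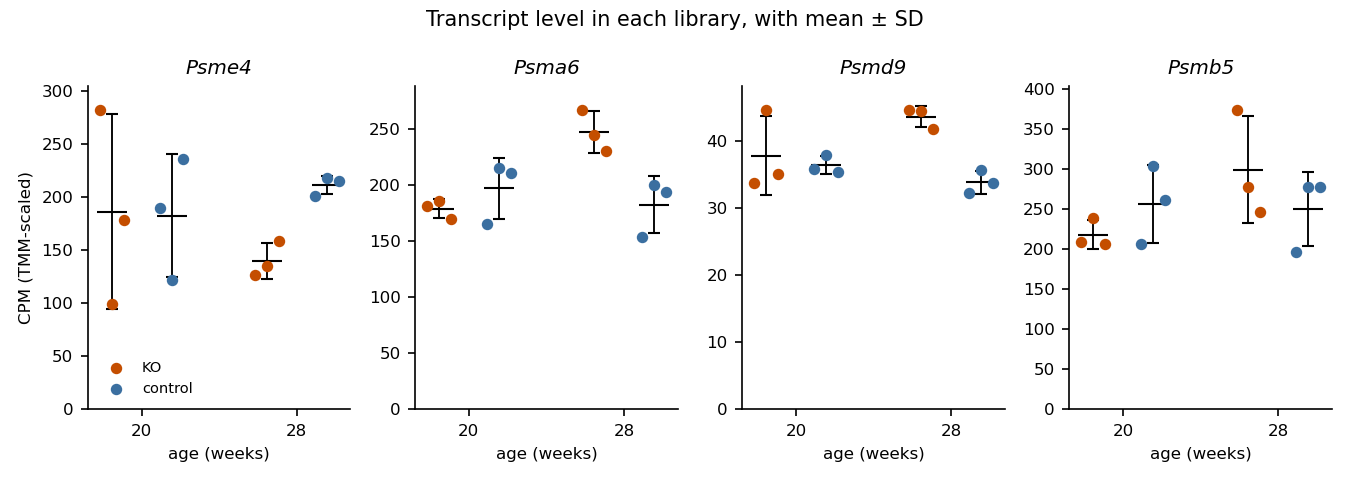
CPM of Psme4, Psma6, Psmd9 and Psmb5 in each library (points) with the mean ± SD (bars), for knockouts (orange) and controls (blue) at 20 and 28 weeks; each vertical axis starts at 0. Psme4 at 28 weeks has 127 to 159 CPM in knockouts and 202 to 218 CPM in controls, and Psmb5 overlaps between genotypes at both ages.

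Differences among the other activators, Psme1, Psme2 and Psme3, were not tested. At 28 weeks Psme3 had 41.5, 32.8 and 36.9 FPKM in knockouts, against 42.3, 40.7 and 40.1 FPKM in controls, which overlapped. Psme1 and Psme2 encode the subunits of PA28, the activator that opens the core for short peptides and is known from antigen processing. Psme1 had 93.9, 79.8 and 73.7 CPM in knockouts, against 83.6, 86.4 and 91.3 CPM in controls, a log2 fold change of -0.08 ± 0.12. Psme2 had 122, 108 and 88.4 CPM in knockouts, against 68.7, 92.6 and 94.2 CPM in controls, a log2 fold change of 0.32 ± 0.18 with an adjusted p of 0.267. Both pairs of groups overlapped. Psme2b, a copy of Psme2, had 48.3, 43.5 and 41.6 CPM in knockouts, against 27.2, 37.5 and 35.2 CPM in controls, without overlap (adjusted p 0.112). Transcripts of Psme2 and Psme2b were identical at 789 of 794 aligned bases, so reads may be split between them and both values are uncertain. The inhibitor Psmf1 had 34.6, 36.1 and 39.1 CPM in knockouts, against 47.7, 42.8 and 38.2 CPM in controls, with a log2 fold change of -0.23 ± 0.13 (adjusted p 0.274).

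Among the 7 alpha subunits, which form the gate of the core, 6 had values above 0 at 28 weeks and 0 passed the test. Psma6 had the highest fold change of the 46 members tested. It had 267, 244 and 230.1 CPM in knockouts, against 153, 199.6 and 194 CPM in controls. Every knockout was above every control, with a log2 fold change of 0.44 ± 0.14 and an adjusted p of 0.0752. Without control 1 its log2 fold change was 0.33 and without knockout 1 it was 0.36. Psma1, another subunit of the same ring, had 136, 162 and 141 CPM in knockouts, against 141, 151 and 157 CPM in controls, which overlapped (log2 fold change -0.03 ± 0.12).

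The 7 beta subunits lay close together at 28 weeks, with log2 fold changes from 0.26 for Psmb5 to 0.33 for Psmb1 and adjusted p-values from 0.160 to 0.452. Psmb5, which carries the chymotrypsin-like site and is the target of bortezomib, had 374, 277 and 246 CPM in knockouts, against 197, 277 and 277 CPM in controls. Psmb6, with the caspase-like site, had 241, 194 and 155 CPM in knockouts, against 127, 166 and 176 CPM in controls. Psmb7, with the trypsin-like site, had 378, 294 and 252 CPM in knockouts, against 198, 276 and 285 CPM in controls. In all 3 catalytic genes the groups overlapped: knockout 1 was the highest library and control 1 the lowest, and the other libraries were mixed. Without knockout 1 the log2 fold changes of Psmb5, Psmb6 and Psmb7 were 0.04, 0.14 and 0.09, and without control 1 they were 0.11, 0.20 and 0.13, against 0.26, 0.33 and 0.28 with all libraries. Psmb2 was the one beta subunit whose groups were separate on CPM, though not on FPKM, with 155, 144 and 123 CPM in knockouts, against 115, 117 and 118 CPM in controls (0.27 ± 0.12, adjusted p 0.160).

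In the 19S base at 28 weeks, all 6 ATPases had values above 0, from 0.21 for Psmc4 to 0.38 for Psmc6. Psmc2 had 212, 202 and 179 CPM in knockouts, against 146, 166 and 168 CPM in controls, without overlap (0.30 ± 0.12, adjusted p 0.127). Psmc6 had 302, 224 and 177 CPM in knockouts, against 102, 215 and 221 CPM in controls. Control 1 was the lowest library for Psmc6, and the standard error was 0.34. Its log2 fold change was 0.13 without knockout 1 and 0.10 without control 1. Psmd2, the base subunit that receives shuttle proteins, lay lower, with 397, 390.2 and 415 CPM in knockouts, against 437, 421 and 435 CPM in controls. Its groups did not overlap, but the log2 fold change was -0.10 ± 0.10 (adjusted p 0.532). Psmd1 and the ubiquitin receptor Psmd4 had 0.19 ± 0.18 and 0.26 ± 0.16.

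On TMM-scaled CPM every knockout lay above every control in 6 of the 31 subunits of the 26S particle, against 19.3% of all genes. Of these 6, 2 belong to the lid. On FPKM the 26S subunits separate in this direction were Psma6, Psmc2, Psmd6 and Psmd7. Psmd7, the partner of the deubiquitinase Psmd14, had 212, 213 and 189 CPM in knockouts, against 155, 162 and 168 CPM in controls (0.34 ± 0.11, adjusted p 0.0701 in edgeR and 0.0417 in DESeq2). Psmd6 had 172, 162 and 153 CPM in knockouts, against 122, 139 and 139.9 CPM in controls (0.28 ± 0.11, adjusted p 0.131). Both were separate between the groups, and both were chosen for mention after their values were seen. Psmd3 had 145, 121 and 131 CPM in knockouts, against 161, 150.3 and 144 CPM in controls, a log2 fold change of -0.19 ± 0.11 and the lowest of the 31 subunits. Psmd8, the most abundant of them per length, had 576, 446 and 446 CPM in knockouts, against 414, 470.0 and 482 CPM in controls (0.10 ± 0.15). Psmd13 had 0.34 ± 0.23, with control 1 again the lowest library at 128 CPM, and its log2 fold change was 0.13 without knockout 1 and 0.20 without control 1.

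The chaperones that assemble the base, Psmd5, Psmd9 and Psmd10, had log2 fold changes of 0.35, 0.37 and 0.36 at 28 weeks. Their standard errors ran from 0.11 to 0.26. In the same order, the fold changes were 0.17, 0.33 and 0.14 without knockout 1, and 0.25, 0.33 and 0.16 without control 1. Psmd9 had 44.7, 44.6 and 41.9 CPM in knockouts, against 32.3, 35.7 and 33.8 CPM in controls. The groups did not overlap, and its adjusted p of 0.0578 was the smallest of any member with a higher value in knockouts. The adjusted p was 0.0313 in DESeq2 and 0.0480 when genes needed 1 CPM in 3 libraries. An opposite-strand noncoding gene shares 25.5% of the exon bases of Psmd9, and the sources used here do not say whether counting used strand. Among the 20S assembly chaperones, Psmg4 had 0.28 ± 0.29, and Psmg2 had 21.4, 22.55 and 20.0 CPM in knockouts, against 24.5, 22.56 and 24.0 CPM in controls (-0.15 ± 0.12).

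The size of the 28-week difference of the subunits depended on single libraries. Relative to the mean log2 CPM of the controls, the median of the 31 subunits was 0.49, 0.29 and 0.02 in knockouts 1, 2 and 3, against -0.24, 0.11 and 0.13 in controls 1, 2 and 3. Knockout 3 thus lay below controls 2 and 3, and the groups overlapped. Knockout 1 was the highest knockout in 28 of the 31 subunits and knockout 3 the lowest in 26, while control 1 was the lowest control in 28. Without knockout 1 the median log2 fold change of the members was 0.12, and without control 1 it was 0.17, against 0.28 with all libraries. Of the 46 members, 12 lay below 0 without knockout 1 and 8 without control 1, against 8 with all libraries. Over all genes with reads in every library the medians of the 6 libraries stayed between -0.03 and 0.06. At 20 weeks the 31 subunits had medians of -0.12, 0.01 and -0.14 in knockouts, against -0.20, 0.12 and 0.08 in controls.

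**Figure D4:**
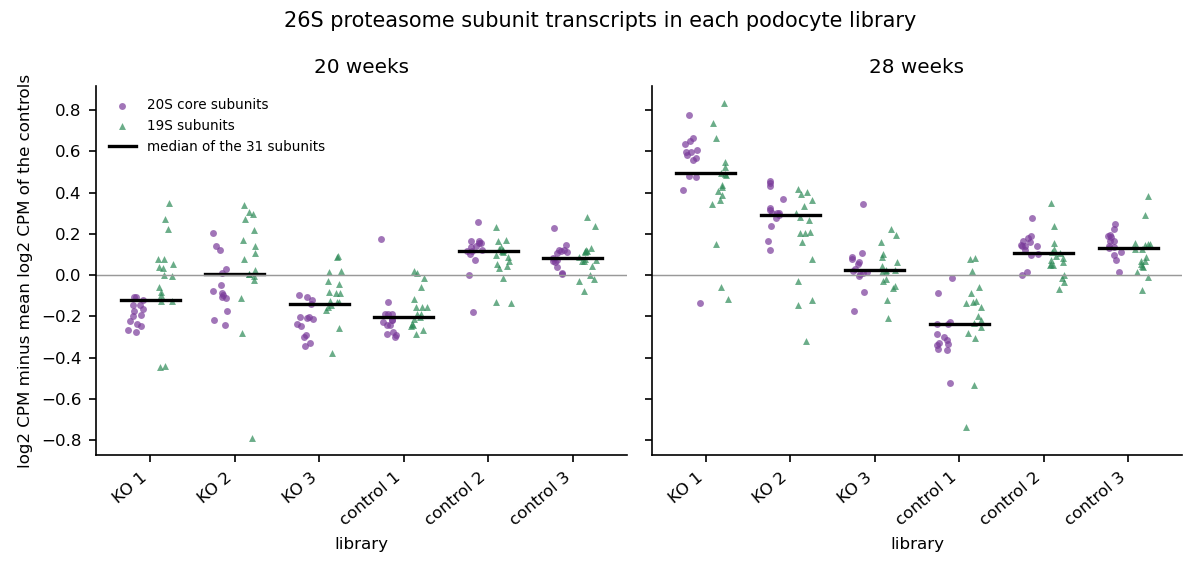
Each point is 1 of the 31 subunits of the 26S proteasome in 1 library, as log2 CPM minus the mean log2 CPM of the controls of that age, with 20S core subunits as circles and 19S subunits as triangles; bars are medians over the 31. At 28 weeks the medians are 0.49, 0.29 and 0.02 in knockouts and -0.24, 0.11 and 0.13 in controls.

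Some markers of other cell types were called at 28 weeks, and their part in the proteasome values was not tested. Of all genes tested at that age 21.2% were called, and 11.9% were called as lower. Smooth muscle and mesangial markers, 5 of 7 called higher, summed to 6938 to 15616 CPM in knockouts, against 2783 to 3136 CPM in controls. Leukocyte markers, 2 of 6 called higher, summed to 595 to 817 CPM in knockouts, against 67.4 to 82.8 CPM in controls. Fibroblast markers, 1 of 4 tested called higher and 1 lower, summed to 1096 to 2439 CPM in knockouts, against 453 to 1248 CPM in controls. The podocyte list had 0 called higher and 2 lower at 28 weeks, and 7 of 12 called higher at 20 weeks. At 28 weeks 1 of 11 tested distal tubule markers was called lower (Aqp2 not used here at that age), and 0 of 3 tested proximal tubule markers were called (Slc34a1 not used here), with proximal sums of 3.49 to 8.50 CPM in knockouts, against 8.55 to 13.7 CPM in controls. Endothelial markers, 0 of 6 called, summed to 36.5 to 124 CPM in knockouts, against 78.5 to 86.0 CPM in controls. At 20 weeks 6 of 7 smooth muscle and mesangial markers, 2 of 4 tested fibroblast markers and 1 of 6 endothelial markers were called higher, 3 of 8 tested distal and 1 of 3 tested proximal tubule markers were called lower, and 0 of 6 leukocyte markers were called. Of all genes tested at 20 weeks 9.92% were called. In bulk samples a change in the share of a cell type and a change in RNA per cell cannot be told apart.

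Whether the knockout effect changed with age was asked of 1 edgeR model of all 12 libraries, in which 47 members were tested. The knockout effect at 28 weeks minus that at 20 weeks was above 0 in 40 of 47, against 54.3% of all 15662 genes, with a median of 0.33, against 0.05 over all genes. In edgeR 0 of the 47 passed an adjusted p of 0.05, where 0% of all genes passed, and 3 had an unadjusted p under 0.05, against 9.12% of all genes. Of these 3, 1 was the testis subunit Psma8, at 2.70 ± 1.22, which had a mean level of only 0.078 FPKM. DESeq2 called 0 members and 25 genes in all. All 14 core subunits were above 0, with a median of 0.50, and Psma6 had the smallest p, with a difference of 0.58 ± 0.20 (adjusted p 0.538). Psme4 had the lowest difference, -0.64 ± 0.48 (adjusted p 0.655). The count at an unadjusted p under 0.05 depended on single libraries. It was 0, with a median of 0.20, without 28-week knockout 1, and 15, with a median of 0.46, without 28-week knockout 3. It was 9 without 20-week control 1, 6 without 28-week control 3, and 1 without 20-week control 3, 20-week knockout 1 or 28-week control 1.

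The change with age was taken within each genotype from the same model. In knockouts the members had a median log2 change of 0.31 at 28 against 20 weeks, against 0.04 over all genes, and 41 of 47 were above 0, against 53.8% of all genes. An unadjusted p under 0.05 was found for 16 of the 47 members, against 11.2% of all genes, 10 of them core subunits, but 0 passed after adjustment in edgeR (0% of all genes) or in DESeq2, and the smallest adjusted p was 0.429. Without knockout 1 at 28 weeks the median was 0.15 and the count at an unadjusted p under 0.05 was 1, and without 28-week knockout 3 that count was 25. It was 5 without 28-week knockout 2, 7 without 20-week knockout 1 and 6 without 20-week knockout 3. In controls the median was -0.03, and single libraries turned its sign: it was 0.07 without 28-week control 1, 0.03 without 20-week control 2 and -0.14 without 20-week control 1. In controls 0 members passed after adjustment in edgeR (0% of all genes) or in DESeq2, and 0 had an unadjusted p under 0.05, against 2.98% of all genes. Each age was deposited as its own table, so age and any difference in handling between the tables cannot be told apart.

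Of 35 genes that work with the proteasome, 5 were called at 28 weeks, 14.3%, against 21.2% of all genes tested, and 0 at 20 weeks, against 9.92%. Of 8 partners, such as the receptor Adrm1 and the maturation protein Pomp, 0 were called at either age. Of 8 regulators, 2 were called at 28 weeks. Nfe2l2 (NRF2), the transcription factor of the oxidative stress response, fell, with 107, 99.1 and 127 CPM in knockouts, against 204, 159 and 164 CPM in controls (-0.66 ± 0.15, adjusted p 0.0272). Ngly1, the deglycosylase that activates NRF1, rose, with 30.3, 34.3 and 28.7 CPM in knockouts, against 17.6, 19.8 and 17.7 CPM in controls (0.76 ± 0.13, adjusted p 0.0107). NRF1 itself (Nfe2l1) had a log2 fold change of -0.06 ± 0.16. Nfe2l2 had adjusted p-values of 0.0552 to 0.0800 without any 1 of the libraries other than knockout 3, and of 0.0706 with controls 2 and 3 summed. Ngly1 had 0.0615 without control 3 and 0.0508 with controls 2 and 3 summed.

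Of 6 ubiquitin genes, 1 was called at 28 weeks: Ubb, which encodes polyubiquitin, rose, with 1517, 1422 and 1082 CPM in knockouts, against 805, 875 and 909 CPM in controls (0.64 ± 0.16, adjusted p 0.0383). Of 10 shuttle and unfoldase genes, 2 were called at 28 weeks, where 21.2% of all genes tested were called. Ufd1, a cofactor of the unfoldase VCP, rose, with 99.4, 91.9 and 94.8 CPM in knockouts, against 61.5, 63.0 and 63.3 CPM in controls (0.61 ± 0.09, adjusted p 0.00822). Ubqln4, a shuttle that carries ubiquitinated proteins to the proteasome, fell, with 56.7, 60.8 and 62.4 CPM in knockouts, against 119, 100.05 and 82.7 CPM in controls (-0.75 ± 0.15, adjusted p 0.0184). None of these genes was called at 20 weeks. Of the 3 inducible subunits 0 were called at either age; Psmb8 had 8.63, 11.8 and 10.2 CPM in 20-week knockouts, against 15.1, 15.0 and 22.0 CPM in 20-week controls, and 25.9, 20.1 and 18.3 CPM in 28-week knockouts, against 11.5, 15.2 and 13.7 CPM in 28-week controls. The groups of Psmb8 were separate at both ages, in opposite directions, with edgeR adjusted p-values of 0.0840 at 20 weeks and 0.0517 at 28 weeks. The naming rule did not choose Psmb8. Psmb10 was separate at both ages in the same directions as Psmb8, and Psmb9 was separate at 28 weeks only. Of all genes, 16.7% had every knockout below every control at 20 weeks, and 19.3% had every knockout above at 28 weeks. The call of Ubb was lost without any 1 of the libraries other than knockout 3 (adjusted p 0.0806 to 0.129), with controls 2 and 3 summed (0.122), with no filter (0.0531) and on log2(FPKM + 1) (0.0529), and that of Ubqln4 without control 2 (0.0687) or knockout 2 (0.0507).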

How the data were processed

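The authors deposited raw counts of reads for every gene symbol, in 1 table per age, and matching FPKM values, in which a count is scaled by gene length and library total. Reads were placed on GRCm38 (mm10), per the submitters' processing notes; the aligner, the counter, its strand setting and the annotation were not given in the sources used here. Each age was tested by the quasi-likelihood F test of edgeR 4.0.16 (R 4.3.3), after filterByExpr and TMM scaling and without a block, with Benjamini-Hochberg adjustment over all genes tested and a threshold of 0.05. Age contrasts used 1 model of all 12 libraries. SE was obtained from the log2 fold change and F (the fold change over the root of F). CPM used TMM-scaled library sizes, and levels between genes used FPKM. DESeq2 1.42.0 and limma 3.58.1 gave alternatives. The scripts were tested on simulated counts.

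The members, the role groups, the gene lists and the naming rule were chosen with earlier results of these data known. The rule names Nsd2, the catalytic subunits, called members, the highest and lowest member of each role at each age, and called genes of the lists. The lists were partners, regulators, ubiquitin genes, shuttles and unfoldases, inducible subunits, and markers of podocytes, distal and proximal tubule, mesangial and smooth muscle cells, fibroblasts, leukocytes and endothelium. The distal tubule list also held genes of the loop of Henle and collecting duct. Gene positions came from GENCODE M21, in which 14 of the 48 members share exon bases with another gene.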

Additional observations from a re-analysis of the deposited data

How the results depend on the processing

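The count of members called at 28 weeks, 1 in edgeR, was 3 in DESeq2 (Psme4 lower, Psmd7 and Psmd9 higher), 2 with a filter of 1 CPM in 3 libraries (Psme4 and Psmd9), 0 with 28-week controls 2 and 3 summed, 0 in the model of all 12 libraries, and 0 to 1 with any 1 library left out; the cause of the differences was not tested. It stayed at 1 with RLE or upper quartile scaling, with no filter and with log2(FPKM + 1). On FPKM in place of TMM-scaled CPM, a comparison chosen after seeing the data, members with every knockout below every control numbered 10 at 20 weeks, against 0 on CPM, and 5 at 28 weeks, against 3. The counts of 0 at 20 weeks and in the age contrasts were 0 under every alternative run. Psme4 at 28 weeks kept its direction in all 15 alternatives, from -0.75 to -0.54, and lost its call in 7, with adjusted p-values from 0.00291 to 0.245. The Nsd2 call at 20 weeks was lost without any 1 library other than knockout 1 (0.0729 to 0.164) and with the 1 CPM filter (0.0562).

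With the replicate number as a block, 0 members were called at 28 weeks, 332 of all genes were called against 3183 without it, Psme4 had -0.60 with an adjusted p of 0.108, and Nsd2 had 0.0526. The block also ended the 28-week calls of Nfe2l2 (0.118), Ngly1 (0.0766), Ubb (0.180), Ubqln4 (0.108) and Ufd1 (0.0883). Under the block Psme4 at 20 weeks was -0.047. The correlation of deviations between same-numbered libraries was -0.10, 0.32 and -0.17 at 20 weeks, and -0.57, -0.10 and -0.47 at 28 weeks. Not every library correlated best with its own number. The deviations were taken from means of 3 libraries and depend on each other, so these correlations cannot decide whether the numbers pair libraries. The labels state no pairing.

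Of 76 gene values, 18 changed sign under some alternative, and none of these was larger than 0.14 in size. At 20 weeks Psmb2 was 0.0025 with no filter. With the 1 CPM filter Psmc4 was -0.021, Psmd2 -0.022, Psmd9 -0.012 and Psme4 -0.0044. On log2(FPKM + 1) Psmc4 was -0.051, Psmd13 -0.016, Psmd2 -0.060, Psmd3 -0.014, Psmd9 -0.043, Psme3ip1 -0.021, Psme4 -0.13 and Psmf1 -0.033. With upper quartile scaling Psmd2 was -0.0060 and Psme4 -0.0078. At 28 weeks Psma1 was 0.011 with upper quartile scaling, and Psme3ip1 was -0.070 on log2(FPKM + 1), -0.0016 with summed controls and -0.018 in the model of all 12 libraries. With 1 library left out at 20 weeks, values ran from -0.20 to 0.0040 for Psmb1, -0.16 to 0.064 for Psmb2, -0.26 to 0.019 for Psmb6, -0.041 to 0.13 for Psmc4, -0.0034 to 0.29 for Psmd1, -0.083 to 0.22 for Psmd13, -0.075 to 0.15 for Psmd2, -0.013 to 0.21 for Psmd3, -0.16 to 0.048 for Psmd4, -0.22 to 0.029 for Psmd5, -0.073 to 0.14 for Psmd9, -0.21 to 0.078 for Psme2b, -0.39 to 0.34 for Psme4 and -0.10 to 0.23 for Psmf1. At 28 weeks they ran from -0.13 to 0.0051 for Psma1, -0.047 to 0.14 for Psmd8 and -0.053 to 0.030 for Psme3ip1. Depth did not limit the 26S subunits, but Psma8 and Psmb11 were near the limit that 3 counts allow, 0.0769 to 0.0955 CPM. Neither passed the filter for the knockout test at 20 or at 28 weeks. Psma8 was tested in the model of all 12 libraries, and Psmb11 was not.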
